A study of Rattus norvegicus with 6 samples.

Results

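Genes that make or remove reactive oxygen species, and genes of the glutathione system, were compared in the rostral ventrolateral medulla of hypertensive and control rats. The set comprised 53 genes chosen by name and by no cut on a measured value, although earlier results of these data were known. They covered sources of oxidants, enzymes that remove superoxide and peroxide, and enzymes that make or use glutathione. The thioredoxin system and heme oxygenases with the Nrf2 pathway completed the set. A probe set belonged to the set where its deposited gene symbol was exactly one of these names, which gave 62 of the 31099 probe sets in the table, for 51 of the 53 genes. Prdx1 and Gstm5 had no such probe set. Of the 62, 52 probe sets of 47 genes had a Present call on 3 or more arrays out of 6 and were tested. The other 10 were Present on no array.

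RNA of this brainstem region was measured on 6 Affymetrix Rat 230 2.0 arrays, 1 per animal. The first group was 3 spontaneously hypertensive rats (SHR), which are inbred and become hypertensive with age without treatment. The second was 3 rats of the WKY strain, the usual control with normal blood pressure, spelled Wistar-Kyoko in the labels. All animals were untreated, weighed between 250 and 350 g according to the labels, and were kept in alternating light and dark of 12 h each. SHR and WKY are separate inbred strains, so a difference between them cannot be told apart from any other genetic difference between the strains.

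Superoxide is made by NADPH oxidases and as a by-product of other enzymes. Superoxide dismutases turn it into hydrogen peroxide, which catalase, glutathione peroxidases and peroxiredoxins remove. Glutathione and thioredoxin supply the electrons for much of this, and the transcription factor Nrf2, held in check by Keap1, raises many of these genes under oxidant stress. Oxidants in the rostral ventrolateral medulla are known for their part in sympathetic drive and in blood pressure of hypertensive rats.

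The arrays were alike in overall signal, with 64.8% to 67.0% of probe sets called Present and array medians of 7.43 to 7.47 on the log2 scale. Every array had been scaled to the same trimmed mean, from which close medians follow in part. Of the genes listed for the adrenaline neurons of this region, those the array could name (Th, Dbh, Pnmt, Ddc and Slc18a2) were all detected. The neuron, astrocyte and oligodendrocyte markers were detected as well. Oligodendrocyte markers lay lower in SHR in 11 of 12 tested sets, with 1 called (a Mobp set at -0.99 ± 0.07), and their summed linear signal was 86372 to 91525 in SHR and 93539 to 100661 in WKY. Single arrays stood apart in some markers of the dissected area: Th read 11.64 in WKY replicate 3 against 8.84 to 10.99 in the other animals. Ddc and Slc18a2 were also highest in that animal in their tested sets. Dbh and Pnmt did not follow, at 7.72 and 8.06 there, and were highest in WKY replicate 1. SHR replicate 2 held the highest Ttr, a choroid plexus gene (9.38 against at most 6.83 in the others), and the lowest Gfap, an astrocyte gene (11.26 against 12.45 to 12.75). The other markers of these lists did not all follow. Folr1, the other choroid plexus gene tested, was lowest in that animal (5.87 against 6.14 to 6.88). Among astrocyte genes Aldh1l1 was also lowest there, whereas Gja1, Slc1a2 and S100b were not, and Aqp4 and Slc1a3 varied between their sets. SHR replicate 2 was also the lowest animal for Txnip, described below with and without it. Vwf, an endothelial gene, differed by -0.85 ± 0.19 without overlap (adjusted p = 0.0972 in limma). The strains overlapped for the rest of the 6 tested endothelial and mural sets. Pecam1, Cldn5, Tek and Pdgfrb differed by -0.06, -0.13, -0.17 and -0.20, and Rgs5 by 0.27. The part of these markers in the member values was not tested. The tissue is a mixture of cells, so fewer cells of a type and less RNA per cell cannot be told apart in any value below.

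None of the member probe sets passed the test between strains. Limma called 0 of the 52 tested probe sets at an adjusted p under 0.05, where 0.924% of all 20790 tested probe sets passed (0.524% above WKY and 0.399% below). At an unadjusted p under 0.05 there were 7 member probe sets, against 9.52% of all tested: 5 lay higher in SHR (Hmox1, Mgst2, Gstm1, Cat and Sod1; 4.81% of all) and 2 lower (Txnip and Gstp1; 4.70% of all). The number at this level was 12 without SHR replicate 2, where 10.1% of all tested sets reached it. It was 3 without a trend of variance on signal, where 9.56% of all reached it. The strains did not overlap for 10 of the 52 sets, against 15.0% of all tested, with 6 higher in SHR (7.26% of all) and 4 lower (7.76% of all).

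Sizes were small as well. The median log2 difference, SHR minus WKY, was 0.01 over the members and 0.00 over all tested probe sets, and the median absolute difference was 0.11 and 0.12. Of the 52 differences, 28 were above 0 and 24 below. Only Txnip, Cybb, Mgst2 and Hmox1 differed by more than 0.5 on the log2 scale, 7.69% of the members against 6.88% of all. The 95% confidence interval of the difference lay within 0.5 on either side of 0 for 36 of the 52 and within 1, or 2-fold, for 47. The median standard error was 0.11 for members and 0.15 for all tested probe sets.

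**Figure D1:**
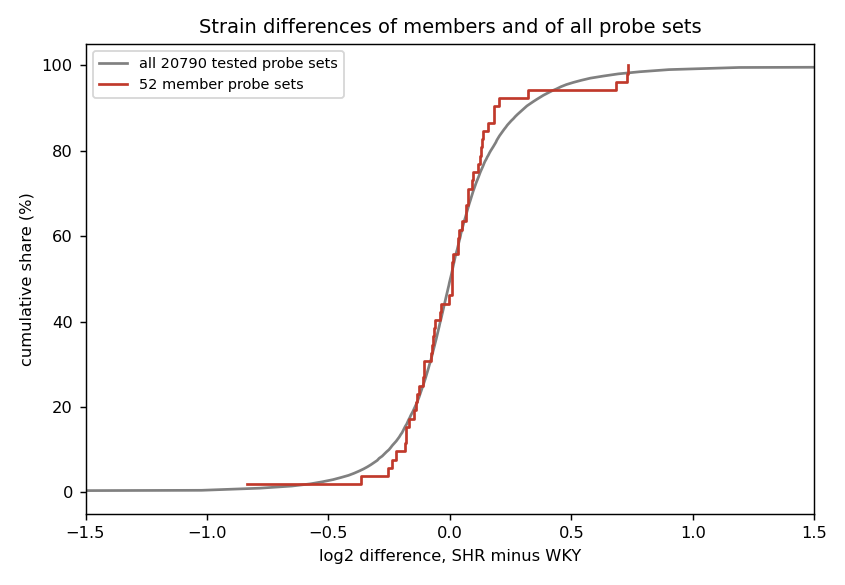
Cumulative share of probe sets (vertical axis, percent) against the log2 difference, SHR minus WKY (horizontal axis), for the 52 tested member probe sets (red steps) and all 20790 tested probe sets (grey line). The medians are 0.01 and 0.00, and the 2 curves run close together.

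**Figure D2:**
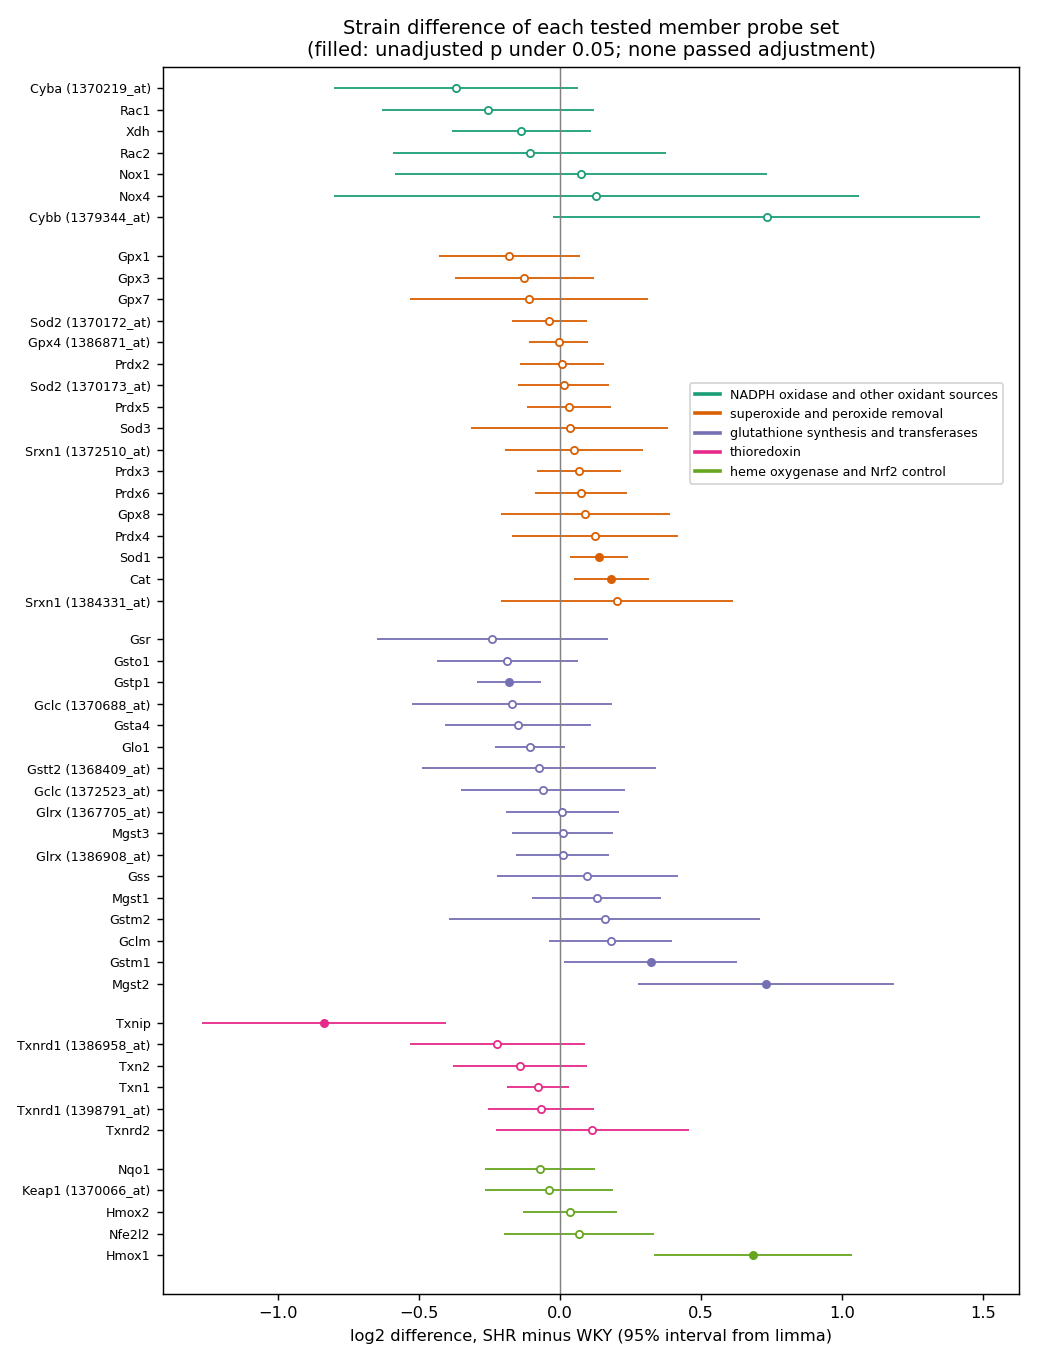
Log2 difference, SHR minus WKY, of each tested member probe set, with the 95% interval from limma, by role. Filled points mark the 7 with an unadjusted p under 0.05, and none of the 52 passed after adjustment.

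Among the oxidant sources, the phagocyte NADPH oxidase was only partly detected. Its catalytic subunit Cybb (gp91phox, or Nox2) was read by a probe set on chromosome X at 15391443 to 15392395 (Rnor5.0, as in the deposited table). Its log2 signal was 7.28, 6.20 and 6.33 in the SHR animals and 6.15, 5.88 and 5.59 in the WKY animals. The 3 SHR values lay above the 3 WKY values, by a narrow gap, and SHR replicate 1 stood well above the other two. The difference was 0.73 ± 0.34 (SE, n = 3 each; 95% interval -0.02 to 1.49), with an adjusted p of 0.546 in limma. It was 0.39 without SHR replicate 1 and 0.41 with 64 added to the linear intensities. A second Cybb probe set was Present on no array, nor were the sets of the cytosolic subunits Ncf1 and Ncf4.

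Cyba, the p22phox partner that stabilises the catalytic subunits, read 8.31, 7.84 and 8.15 in SHR and 8.22, 8.31 and 8.87 in WKY. The strains overlapped, and the difference pointed the other way from that of Cybb, at -0.37 ± 0.19 (SE; adjusted p = 0.616). It was -0.17 without WKY replicate 3, which held the highest value.

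Markers of the cells that carry this oxidase were read beside it. Of 12 microglia genes, 10 were tested and none had an unadjusted p under 0.05, while Cd68 and Trem2 were not detected. Their summed linear signal was 3646 to 4574 in SHR and 3688 to 4212 in WKY. Of the neutrophil genes, Camp, Lcn2 and S100a8 were not detected on any array. S100a9, a calcium-binding protein abundant in neutrophils, was Present on the 3 SHR arrays and on no WKY array, with log2 signals of 7.10, 6.64 and 6.14 against 5.04, 5.11 and 4.64. It was kept by the Present filter through the SHR arrays alone, so no test is given for it. SHR replicate 1 held the highest S100a9 and the highest Cybb signal. The part of such cells in the Cybb values was not tested.

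The strains overlapped for each of the remaining oxidant sources. Rac1, the small GTPase that activates NADPH oxidases, read 10.90, 11.63 and 11.64 in SHR and 11.76, 11.68 and 11.50 in WKY, and differed by -0.25 ± 0.17 (SE), with SHR replicate 1 well below the other 5 animals. Rac2, its relative in blood cells, differed by -0.11 ± 0.22 and Xdh, xanthine dehydrogenase, by -0.14 ± 0.11. Nox1 and Nox4, catalytic subunits of other NADPH oxidases, were near the detection limit, Present on 4 and 5 of 6 arrays, and differed by 0.07 ± 0.30 and 0.13 ± 0.42. Intervals for Nox4 ran from -0.80 to 1.06, so moderate differences could not be detected there. Of the 7 tested sets of this role, 3 differences were above 0 and 4 below, with a median of -0.11.

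Among enzymes that remove superoxide and peroxide, no set passed the test. Of 17 tested sets, 12 differences were above 0 and 5 below, with a median of 0.03 and a range of -0.18 to 0.20. Sod1, the cytosolic copper-zinc superoxide dismutase, read 13.19, 13.12 and 13.14 in SHR and 13.01, 13.04 and 12.99 in WKY. The strains did not overlap, although the difference of the means was small. It was 0.14 ± 0.05 (SE), or 9.98% of the signal with a 95% interval of 2.45% to 18.1% (adjusted p = 0.320). Cat, the catalase of peroxisomes, read 11.73, 11.72 and 11.64 in SHR and 11.55, 11.51 and 11.48 in WKY. Again every SHR animal lay above every WKY animal, and the means differed by 0.18 ± 0.06 on the log2 scale or 13.5% (adjusted p = 0.298). With a variance trend the unadjusted p in limma was 0.0135 for Sod1 and 0.0117 for Cat. Without the trend it was 0.121 and 0.0597.

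The mitochondrial dismutase Sod2 differed by -0.04 ± 0.06 and 0.01 ± 0.07 (SE) in its probe sets, with 95% intervals inside -0.17 and 0.18. In the first set the strains did not overlap even so: 11.28, 11.25 and 11.23 in SHR against 11.30, 11.29 and 11.29 in WKY. The second set, with 11.16, 11.32 and 11.28 against 11.22, 11.17 and 11.34, overlapped. Sod3, the secreted dismutase, differed by 0.03 ± 0.16.

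Glutathione peroxidases did not pass the test, and 4 of the 5 tested differed by less than 0. Gpx4, which removes lipid peroxides in membranes, gave 13.08, 13.06 and 13.07 in SHR and 13.10, 13.10 and 13.02 in WKY. The values overlapped, and its difference of 0.00 ± 0.05 (SE; 95% interval -0.11 to 0.10) was the smallest in size of the 52. Gpx1, the main cytosolic form, differed by -0.18 ± 0.11, the plasma form Gpx3 by -0.13 ± 0.11, and Gpx7 and Gpx8, of the endoplasmic reticulum, by -0.11 ± 0.19 and 0.09 ± 0.13. The deposited position of the Gpx1 probe set is on chromosome 14, whereas RefSeq places the gene on chromosome 8 (GRCr8), so no position is given for it. The score deposited with that alignment is 42.44, the lowest of the member sets, and what the set reads was not tested.

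All 5 tested peroxiredoxins, thiol enzymes that reduce peroxide, lay slightly above 0, and none had an unadjusted p under 0.05. Differences were 0.01 ± 0.07 for Prdx2, 0.07 ± 0.07 for the mitochondrial Prdx3, 0.12 ± 0.13 for Prdx4 of the endoplasmic reticulum, 0.03 ± 0.07 for Prdx5 and 0.08 ± 0.07 for Prdx6 (SE, n = 3 each). Srxn1, the sulfiredoxin that repairs overoxidised peroxiredoxins, differed by 0.05 ± 0.11 and 0.20 ± 0.18 in its tested sets. One more Srxn1 set was Present on no array.

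In the glutathione role, 17 sets of 15 genes were tested, with 9 differences above 0 and 8 below. The largest was in Mgst2, a microsomal glutathione transferase that can also make leukotriene C4, on chromosome 2 at 160184014 to 160202851 (Rnor5.0). Its log2 signal was 8.36, 8.07 and 7.81 in SHR and 7.36, 7.06 and 7.63 in WKY. The lowest SHR animal lay just above the highest WKY animal. The difference was 0.73 ± 0.20 (SE), 1.66-fold, with an adjusted p of 0.194. Its relatives Mgst1 and Mgst3 differed by 0.13 ± 0.10 and 0.01 ± 0.08.

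Gstp1, the pi-class transferase, varied little within strains. It read 12.48, 12.56 and 12.54 in SHR and 12.73, 12.74 and 12.66 in WKY, so every SHR animal lay below every WKY animal. The difference was -0.18 ± 0.05 (SE; 95% interval -0.29 to -0.07), with an adjusted p of 0.204. The unadjusted p of Gstp1 in limma was 0.00535, and 0.0606 without a variance trend. Gstm1, of the mu class, read 10.36, 10.17 and 10.64 in SHR and 10.22, 9.81 and 10.18 in WKY, an overlap by SHR replicate 2, and differed by 0.32 ± 0.14 (adjusted p = 0.496). It was 0.20 without SHR replicate 3 and 0.19 without WKY replicate 2. Mu-class genes are close relatives in sequence, and cross-hybridisation among them was not tested, although the deposited table gives this probe set 1 alignment. Gstm2, detected on 4 of 6 arrays, differed by 0.16 ± 0.25, and Gstm3 and Gstt1 were Present on no array. Gsta4, which detoxifies lipid aldehydes, Gsto1, of the omega class, and Gstt2, of the theta class, differed by -0.15 ± 0.12, -0.19 ± 0.11 and -0.07 ± 0.19.

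No gene of glutathione synthesis passed the test. Gclm, the modifier subunit of the rate-limiting ligase, read 9.63, 9.43 and 9.59 in SHR and 9.39, 9.30 and 9.42 in WKY. The strains did not overlap, with the closest animals nearly level, and the difference was 0.18 ± 0.10 (adjusted p = 0.626). Gclc, the catalytic subunit of the same ligase, differed by -0.17 ± 0.16 and -0.06 ± 0.13 in its probe sets, and Gss, which adds the last residue, by 0.10 ± 0.14. Gsr, which regenerates reduced glutathione, differed by -0.24 ± 0.18. Glrx, which removes glutathione from proteins, differed by 0.01 in both sets, with errors of 0.09 and 0.07. Glo1, which uses glutathione to clear methylglyoxal, read 11.98, 11.95 and 12.07 in SHR and 12.10, 12.13 and 12.08 in WKY, without overlap, and differed by -0.11 ± 0.06 (adjusted p = 0.618).

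Gstp1 and Gclm are shown with the sequence before their start because both are known Nrf2 targets, hold the core letters of the antioxidant response element there, and lay on opposite sides of 0. RefSeq windows (GRCr8) run from 250 bases before to 50 after the gene start, as 5′ to 3′ on the gene's strand. The letters searched were TGACNNNGC on both strands, with overlapping matches counted, and capitals mark the match.
Gstp1 (chr1:210769656-210769955, minus strand): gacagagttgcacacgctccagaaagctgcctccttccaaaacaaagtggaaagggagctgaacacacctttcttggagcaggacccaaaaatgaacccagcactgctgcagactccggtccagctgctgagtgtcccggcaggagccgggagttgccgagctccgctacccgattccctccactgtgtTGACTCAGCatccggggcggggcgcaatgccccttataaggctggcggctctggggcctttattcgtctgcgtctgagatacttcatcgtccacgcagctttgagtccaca
Gclm (chr2:213031885-213032184, plus strand): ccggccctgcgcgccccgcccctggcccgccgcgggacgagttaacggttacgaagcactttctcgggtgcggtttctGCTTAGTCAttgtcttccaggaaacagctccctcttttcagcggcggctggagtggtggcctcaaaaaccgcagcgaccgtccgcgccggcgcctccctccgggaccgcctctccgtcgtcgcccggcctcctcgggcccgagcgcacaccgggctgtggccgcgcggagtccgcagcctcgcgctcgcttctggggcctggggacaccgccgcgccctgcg
The match begins 61 bases before the start in Gstp1, on the gene's own strand, and 172 bases before it in Gclm, on the opposite strand. A match is a description of the reference strain's letters and not of a site used in SHR or WKY.

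Of 41 member genes with such a window, 10 held the letters (24.4%), against 12.2% of 27457 windows of the same length. Of those 10, 7 were tested here, with differences from -0.18 (Gstp1) to 0.18 (Gclm), 5 above 0 and 2 below, and a median of 0.04. The 30 tested members whose windows lacked the letters had a median of 0.00, with 15 above and 15 below. Hmox1, Txnip and Mgst2, whose differences were larger in size than any of those 7, had no such window and were not searched. The windows were 300 bases long and were read for 1 motif only.

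The thioredoxin role held the largest difference among the members. Txnip, the thioredoxin-interacting protein that binds and inhibits thioredoxin and limits glucose uptake, was read on chromosome 2 at 218170025 to 218173861 (Rnor5.0). Its log2 signal was 10.42, 9.44 and 9.83 in SHR and 10.79, 10.76 and 10.65 in WKY. The WKY animals lay close together and the SHR animals were spread below them, with SHR replicate 1 nearest to WKY. Means were 9.90 ± 0.49 and 10.74 ± 0.07 (SD, n = 3 each), a difference of -0.84 ± 0.19 (SE; 1.79-fold; 95% interval -1.27 to -0.41) with an adjusted p of 0.103. The SHR spread was among the widest of the tested members, after Cybb in SHR and Nox1 in WKY. The adjusted p in limma depended on single animals and on the model. The difference became -1.10 with an adjusted p of 0.000721 without SHR replicate 1, and -0.61 with 0.161 without SHR replicate 2. With the replicate number as a block the adjusted p was 0.0419, and over all alternatives it lay between 0.000721 and 0.355.

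Thioredoxin and its reductases gave smaller differences. Txn1, cytosolic thioredoxin, read 12.80, 12.72 and 12.75 in SHR and 12.87, 12.83 and 12.80 in WKY, nearly without overlap, and differed by -0.08 ± 0.05 (adjusted p = 0.687). The mitochondrial Txn2 differed by -0.14 ± 0.11, the cytosolic reductase Txnrd1 by -0.22 ± 0.14 and -0.07 ± 0.08 in its probe sets, and the mitochondrial reductase Txnrd2 by 0.11 ± 0.15. Of the 6 sets of this role 5 lay below 0, with a median of -0.11. Relatives and regulators of Txnip gave 0 calls in limma, and 0 of 6 sets had an unadjusted p under 0.05. Among them Arrdc4, the arrestin-domain gene that shares its glucose-sensing control, differed by -0.06 ± 0.25, Arrdc2 by 0.17 ± 0.09, and Mlx, a partner of the glucose-sensing factors, by -0.16 ± 0.09 and -0.12 ± 0.09.

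Hmox1, the inducible heme oxygenase that breaks heme into biliverdin, iron and carbon monoxide, had the smallest p-value of the members. It was read on chromosome 19 at 25622553 to 25629377 (Rnor5.0), with log2 signals of 8.11, 8.17 and 8.03 in SHR and 7.23, 7.48 and 7.56 in WKY. Every SHR animal lay above every WKY animal, by more than the spread of either strain. Means were 8.10 ± 0.07 and 7.42 ± 0.17 (SD, n = 3 each), a difference of 0.68 ± 0.16 (SE; 1.61-fold; 95% interval 0.33 to 1.03). Limma gave an unadjusted p of 0.00143 and an adjusted p of 0.102, between 0.0966 and 0.346 over the alternatives, so the difference did not pass the test under any setting tried. Leaving out any 1 animal gave differences of 0.59 to 0.75.

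No other gene of the Nrf2 group had an unadjusted p under 0.05. Hmox2, the constitutive heme oxygenase, differed by 0.04 ± 0.07 with a 95% interval of -0.13 to 0.20. Nfe2l2, which encodes Nrf2, differed by 0.07 ± 0.12, and its inhibitor Keap1 by -0.04 ± 0.10. Nqo1, a quinone reductase widely used as a Nrf2 readout, read 9.96, 9.84 and 9.86 in SHR and 10.06, 9.89 and 9.93 in WKY. The strains overlapped and the difference was -0.07 ± 0.09 (SE; 95% interval -0.27 to 0.12; adjusted p = 0.864).

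Blood and heme genes were read beside Hmox1. The red cell genes detected were Alas2, of heme synthesis, and Hbb, beta globin, which differed by -0.70 ± 0.19 and -0.38 ± 0.16 (SE; adjusted p = 0.180 and 0.477), the opposite direction to Hmox1. Their summed linear signal was 4610 to 5825 in SHR and 5243 to 8800 in WKY, and Slc4a1 was not tested, being Present on at most 2 arrays. Of 10 tested sets for heme and iron handling, limma called 0 and none had an unadjusted p under 0.05. Blvra, the biliverdin reductase that acts after heme oxygenase, differed by -0.09 ± 0.14, Slc48a1, a heme transporter, by 0.09 ± 0.09, and Tfrc, the transferrin receptor, by -0.11 ± 0.12 and -0.12 ± 0.09. The part of blood left in the tissue in the Hmox1 values was not tested.

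**Figure D3:**
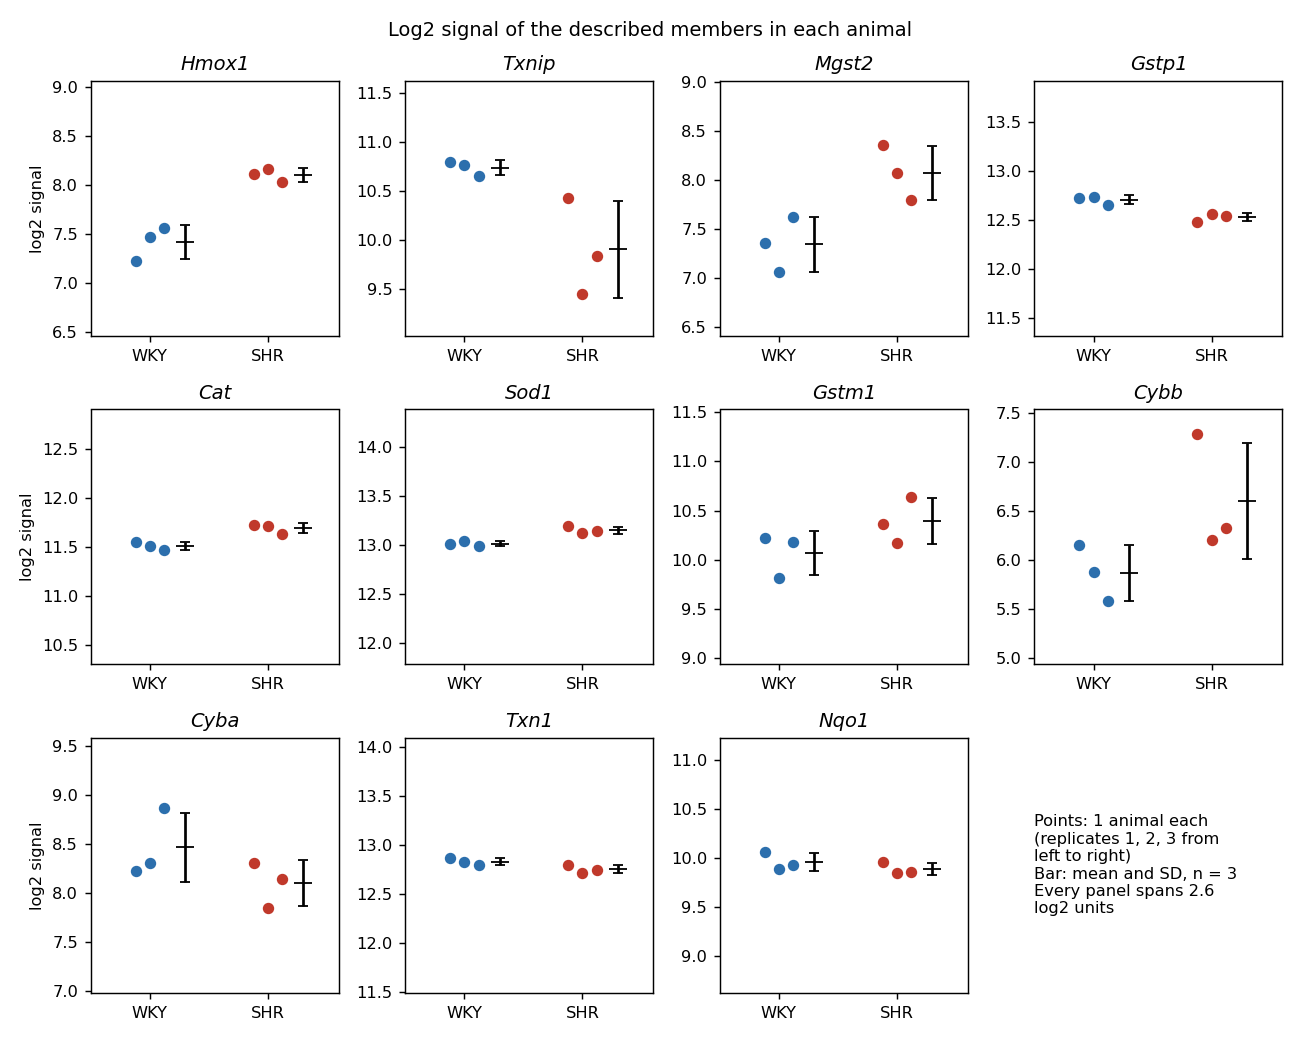
Log2 signal (vertical axis) of 11 member genes in each animal of WKY (blue) and SHR (red), ordered by p-value, with the mean and SD of 3 animals as black bars. Strains do not overlap for Hmox1, Txnip, Mgst2, Gstp1, Cat, Sod1 and Cybb, and every panel spans the same range.

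Further genes of these pathways were counted in the same way. Of 44 genes of oxidant and antioxidant metabolism on the array that are not members, 47 sets of 39 genes were tested, and the 1 call was higher in SHR, where 0.924% of all tested sets were called. At an unadjusted p under 0.05, reached by 9.52% of all, there were 1 higher and 2 lower (Glrx5 at -0.20 ± 0.08 and Tkt at -0.44 ± 0.19, with a second Tkt set at -0.06 ± 0.07), and the median difference was 0.00. That gene was Sesn1, sestrin 1, a p53 target that protects against oxidants and restrains mTOR signalling, on chromosome 20 at 48437068 to 48437687 (Rnor5.0). It read 9.38, 9.39 and 9.75 in SHR and 8.40, 8.72 and 8.92 in WKY. The strains did not overlap, and the difference was 0.83 ± 0.15 (SE; 1.77-fold; adjusted p = 0.0386). Its other tested set, on the same gene at 48416061 to 48425673, differed by -0.23 ± 0.20 and was not called. The call held in 8 of 15 alternatives and was lost without SHR replicate 2 or 3 (adjusted p = 0.0687 and 0.0982), when WKY replicate 1, 2 or 3 was left out (0.161, 0.150 and 0.0542), with no Present filter (0.0591) and with no variance trend (0.179).

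Partners and targets of Nrf2 outside the members gave 0 calls among 14 tested sets of 9 genes in limma, with 0 at an unadjusted p under 0.05 and 7 differences on each side of 0. Abcc4, an efflux transporter, had the smallest p, at 0.36 ± 0.17, and Sqstm1, a Keap1-binding autophagy receptor, followed at -0.09 ± 0.06 in the set with its smallest p.

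The median SD over the tested member sets was 0.14 in SHR and 0.12 in WKY, against 0.17 and 0.14 for all tested sets. The widest were Cybb in SHR (0.59), Nox1 in WKY (0.58), Txnip in SHR (0.49), and Nox4 and Rac1 in SHR (0.42 each). SHR replicate 1 held the highest SHR value of Cybb and Txnip and the lowest of Rac1. The 11 member sets plotted by setting kept the direction of their difference under each of 15 alternatives, which are not given by set for the other members. This was in part fixed beforehand. Filters, no variance trend, the block and 1 probe set per gene leave the difference itself unchanged. Where the strains do not overlap, leaving out 1 animal cannot reverse it. The 11 were also chosen by small p in these data.

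**Figure D4:**
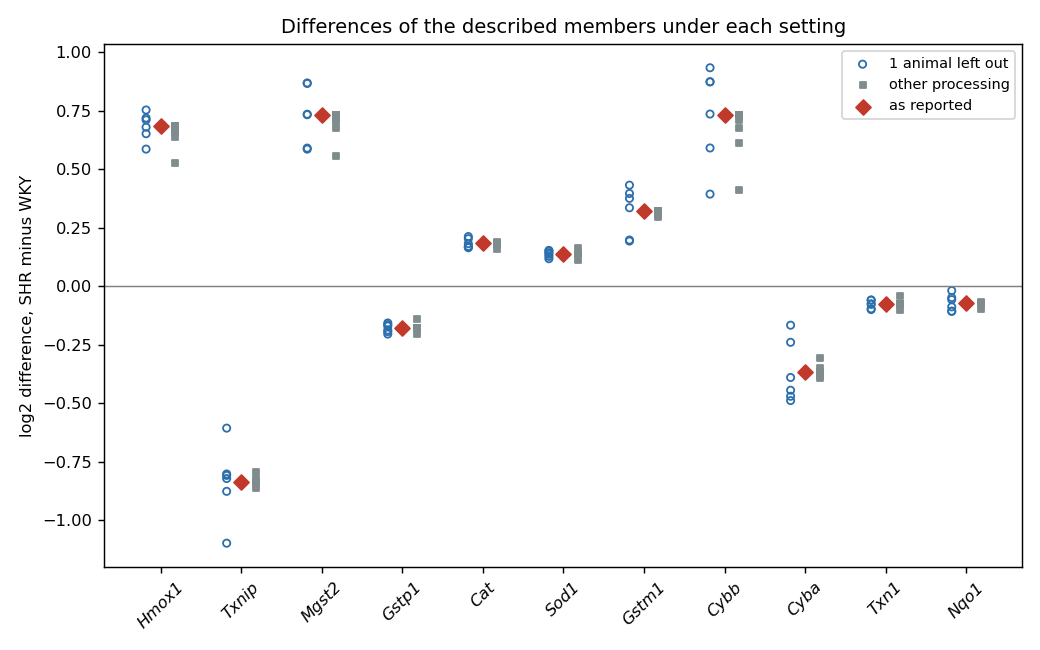
Log2 difference, SHR minus WKY (vertical axis), of 11 member genes as reported (red diamonds), with each animal left out in turn (open circles) and under the other processing settings (grey squares). All values of a gene stay on one side of 0, and Txnip ranges from -1.10 to -0.61. Settings that change only the filter or the model leave the difference as it was.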

How the data were processed

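For the 6 arrays the authors deposited log2 signals with detection calls, and separately the linear intensity of every probe set. Per the submitters' processing notes the tool was MAS5, with no version in the sources used here. The deposited log2 values equalled log2 of the deposited intensity floored at 1, within 8.18e-06, and the trimmed mean intensity (2% removed at each end) was 500.14 on every array. Low MAS5 signals are noisy, and strain variants under a probe can lower its signal. Positions are those of the deposited alignments (Rnor5.0).

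The 57 array controls were left out of the 31099 probe sets, and 20790 sets Present on at least 3 of 6 arrays entered limma 3.58.1 under R 4.3.3 (lmFit, eBayes with a variance trend, strain as the only factor), 2-sided, with Benjamini-Hochberg adjustment over all tested probe sets. The steps were tested on simulated data. Members, lists and tests were chosen with earlier results of these data known. Values per animal are given for member sets with an unadjusted p under 0.05 and for the 2 genes of smallest p in each role, taken on the tested set of highest mean signal. Other members described per animal, S100a9, and list genes beyond the called and the 2 of smallest p, were chosen after their values were seen. Symbols of list genes were updated through a RefSeq table (GRCr8). The array count limits precision, and no batch label was used here. Alternatives were other filters, scalings, pseudocounts of 16 and 64, no variance trend, the replicate number as a block, 1 probe set per gene, and each animal left out.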

Additional observations from a re-analysis of the deposited data

How the results depend on the processing

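The count of called probe sets over the whole table was 192. It was 63 without a variance trend, 94 with 1 probe set per gene (fewer features tested), and between 78 and 205 with 1 animal left out: 81, 81 and 78 without WKY replicate 1, 2 and 3. The called members numbered 0 with every scaling, filter and pseudocount tried, without a variance trend and with 1 probe set per gene. They numbered between 0 and 1 with 1 animal left out, the 1 being Txnip without SHR replicate 1, and 1 (Txnip again) with the replicate number as a block. Members at an unadjusted p under 0.05 numbered 7, against 9.52% of all tested sets, and 3 without a variance trend, against 9.56% of all. With 1 animal left out they numbered between 7 and 12, against 7.32% to 10.4% of all. The highest number was without SHR replicate 2, against 10.1% of all. The cause was not tested. Of 165 values of the 11 member sets recomputed under 15 alternatives, 163 stayed on the same side of the threshold and all kept their direction. The direction was in part fixed beforehand, since several settings leave the difference unchanged. Sets without overlap cannot reverse with 1 animal left out. The labels name no pairing of same-numbered animals of the 2 strains. The deviations of such animals correlated at 0.08, -0.01 and 0.07 across probe sets, and not every animal correlated best with its own number. These values cannot show whether same-numbered animals shared a batch. The block gave 196 called probe sets and changed no other call among those 11. Probe sets near background, such as those of Nox1, Nox4, Gpx7 and Gstm2, have the least signal to compare.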

Other observations

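A few member probe sets were Present on no array and were not tested, yet their log2 signals spread widely. The second Gstt2 set read 4.05, 6.70 and 6.66 in SHR and 3.84, 2.65 and 6.30 in WKY, and an Srxn1 set read 3.91, 4.68 and 4.41 in SHR and 2.09, 2.59 and 4.78 in WKY. The Gstm3 set read 4.39, 1.91 and 2.17 in SHR and 6.04, 1.16 and 4.12 in WKY. The strains overlapped in each. The second Keap1 set, also Present on no array, read between 7.08 and 7.63 in SHR and between 6.79 and 7.18 in WKY.

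The deposited position of the Mgst3 probe set is on chromosome 14, the first of 2 alignments, whereas RefSeq (GRCr8) places the gene on chromosome 13. Its signals and those of Gpx1 were therefore reported without a position.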
